A study of Sus scrofa with 8 samples.

Results

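The respiratory chain of the right ventricle was described here through its subunits encoded in the nucleus, grouped by complex. The set was a list of 59 genes: 28 of complex I, 9 of complex III with its carrier cytochrome c, 11 of complex IV and 11 of complex V. Members were found by gene name, or by a one-to-one human orthologue name, in the authors' deposited comparison, and then by gene identifier in the count table. This gave 51 members among 31908 gene models: 27 of complex I, 7 of complex III, 9 of complex IV and 8 of complex V. All 51 were among the 13697 genes tested. The other 8 had no model by that rule. NDUFB5, UQCRH, COX6B1, ATP5F1B and ATP5PD have models only as one-to-many orthologues and stand outside every count, and UQCRB, COX6C and ATP5MC2 matched no model by name. The expressed models of those 5 had log2 fold changes, banded over control, of 0.23 for NDUFB5, 0.25 for UQCRH, 0.16 for COX6B1, -0.10 for ATP5F1B and -0.17 for ATP5PD, with edgeR adjusted p of 0.503 to 0.768.

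Bulk RNA was sequenced from the free wall of the right ventricle in 8 Yorkshire Cross pigs, 1 library per animal. In the 4 banded pigs, castrated male piglets of 4.5 ± 0.6 weeks and 6.4 ± 1.3 kg, a tape around the main pulmonary artery narrowed the vessel so that peak pressure in the right ventricle reached some 30 to 40 mmHg, which loads the ventricle. The 4 control pigs were of like age and weight, were housed for 8 weeks and had no treatment. Their sex, a sham operation, a sequencing batch, the maternal line and the time from banding to tissue are not given in the sources used here, so banding cannot be told apart from surgery or from any of these that differed. Depth was 31033679 to 34183338 counts per library. The mitochondrial genome took 30.5% to 39.7% of the counts in banded pigs and 35.3% to 43.9% in controls. Levels are given as CPM, which are counts scaled to the library's total after TMM normalisation. Heart muscle markers were abundant in every library. Over 8 tested markers the summed level was 39170 to 50750 CPM in banded pigs and 29650 to 40320 CPM in controls. The gene model of one marker, TNNI3 (cardiac troponin I), had only 2.44 to 11.3 CPM in banded pigs and 12.6 to 20.6 CPM in controls.

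The respiratory chain sits in the inner mitochondrial membrane and passes electrons taken from nutrients to oxygen. Complexes I, III and IV pump protons as they do so, and complex V, the ATP synthase, uses the proton gradient to make ATP. Each of these complexes joins subunits made from the mitochondrial genome to subunits that are made in the cytosol from nuclear genes and imported. Heart muscle depends on this pathway for most of its ATP, and several complex IV subunits come as a heart and muscle isoform and a more widely expressed one.

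No nuclear subunit of the respiratory chain passed the test in banded pigs. With edgeR's quasi-likelihood test and Benjamini-Hochberg adjustment over all genes, 0 of 51 members were higher and 0 were lower at an adjusted p under 0.05, where 6.97% of all tested genes passed (954 genes), 3.47% higher and 3.5% lower. At an unadjusted p under 0.05 there were 2 members, COX5A and COX7A2, both of complex IV, where 23.8% of all tested genes stood. DESeq2, run as an alternative, called 1 member, COX5A, where it called 12.5% of all genes, and limma-voom called 0, where it called 9.79%. The log2 fold changes of the members, banded over control, lay between -0.32 and 0.41, with a median of 0.03 beside 0.02 over all tested genes. There were 26 positive and 25 negative values. The banded and control libraries did not overlap for 1 of 51 members, COX5A, beside 15.9% of all tested genes.

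A call that misses the threshold does not show equal levels, so the intervals are given too. The 95% interval of the fold change lay wholly within 1.5-fold in either direction for 34 of 51 members, and within 2-fold for 50. The exception at 2-fold was NDUFS8, whose model held less than 1 CPM in every library. The standard error of a member's log2 fold change had a median of 0.17. In whole tissue, fewer heart muscle cells and less RNA of a gene per cell cannot be told apart. Among the 8 heart muscle markers 4 log2 fold changes were positive and 4 negative. edgeR called 1 higher in banded pigs and 0 lower, with 6 at an unadjusted p under 0.05, while DESeq2 called 4 and limma-voom 3. The shares of all genes were 23.8% at an unadjusted p under 0.05, 12.5% by DESeq2 and 9.79% by limma-voom. The gene called by edgeR was MYL2, the ventricular regulatory light chain (0.91 ± 0.17, edgeR adjusted p = 0.0113). Besides MYL2, the largest values on either side were 0.60 for ACTN2, a Z-disc protein, -0.74 for RYR2, the calcium release channel, and -1.25 for TNNI3. The part of these markers in the subunits' values was not tested.

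**Figure D1:**
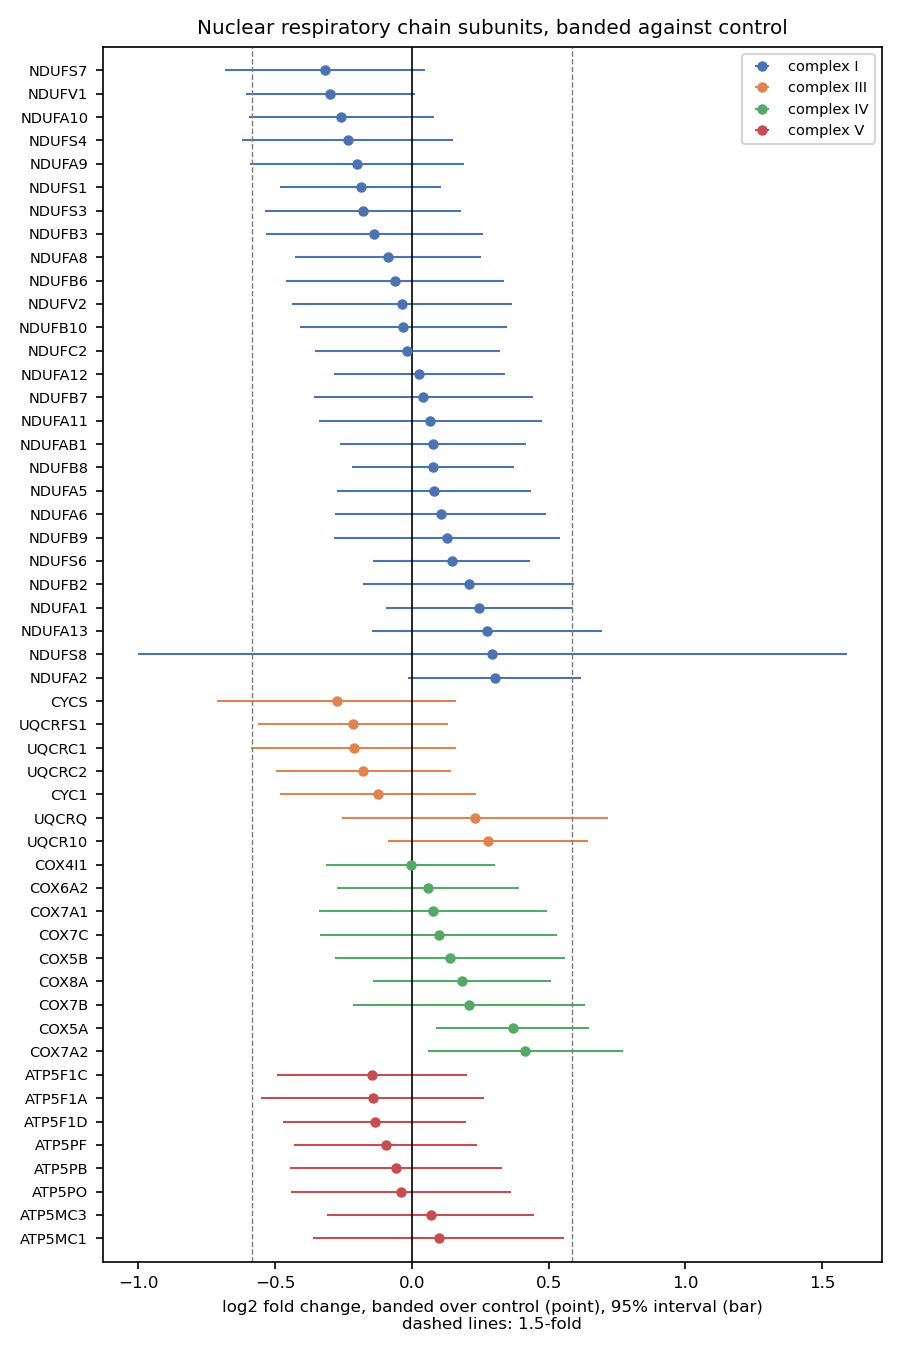
Log2 fold change of each of the 51 tested subunits, banded over control, on the horizontal axis (points, with bars for the 95% interval), by complex down the page. The points lie between -0.32 and 0.41, and only the bars of COX5A and COX7A2 leave out 0.

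Complex I takes electrons from NADH and hands them to ubiquinone. Its median log2 fold change was 0.03, with 14 positive and 13 negative values among 27 members, and the groups overlapped for every one. This median was -0.08 when counts were scaled by library size alone, and between -0.06 and 0.12 with 1 library left out. The 6 core subunits, which include those that carry the flavin and the iron-sulphur clusters, had a median of -0.18, with 5 of 6 values negative. The 21 accessory subunits, which surround the core and stabilise it, had a median of 0.07, with 13 positive values.

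NDUFV1, the core subunit where NADH is oxidised, had 237, 194, 216 and 282 CPM in banded pigs, against 292, 288, 270 and 293 CPM in controls. Banded 1, 2 and 3 were below every control, and banded 4 lay within the control range. Its log2 fold change was -0.30 ± 0.14 (SE, n = 4 each; edgeR adjusted p = 0.226), with a 95% interval of -0.61 to 0.01. NDUFS7, the core subunit whose iron-sulphur cluster passes electrons on to ubiquinone, had 189, 135, 181 and 240 CPM in banded pigs, against 244, 230, 214 and 242 CPM in controls. Again 3 banded libraries were below every control and banded 4 was among the controls, at a log2 fold change of -0.32 ± 0.17 (edgeR adjusted p = 0.277). The other core subunits of measurable level were NDUFS1 (-0.19), NDUFS3 (-0.18) and NDUFV2 (-0.04), all in log2 fold change.

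The sixth core subunit, NDUFS8, which also carries iron-sulphur clusters, could not be measured well. Its model had 0.82, 0.94, 0.15 and 0.49 CPM in banded pigs, against 0.53, 0.73, 0.31 and 0.40 CPM in controls, beside a floor of 0.0878 to 0.0967 CPM (3 counts in a library, counting error only). The groups overlapped, and banded 3 was the lowest library. The log2 fold change was 0.29 ± 0.59 (edgeR adjusted p = 0.812), and it came to -0.01 without banded 2. The model spans positions 4848599 to 4885860 of chromosome 2 (Sscrofa11.1, minus strand) and shares exons with the model of TCIRG1, a proton pump subunit, so reads from either gene there cannot be assigned to one.

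Among the accessory subunits of complex I, NDUFA2, a small subunit of the arm that reaches into the matrix, had 61.5, 49.9, 74.8 and 66.0 CPM in banded pigs, against 47.9, 48.6, 48.4 and 59.5 CPM in controls. Banded 1, 3 and 4 were above every control, and banded 2 lay among the controls. Its log2 fold change was 0.30 ± 0.14 (edgeR adjusted p = 0.228). NDUFB9, a membrane arm subunit, had the highest level per kilobase of exon in the complex, 367 ± 80.9 CPM per kb in banded pigs and 335.5 ± 52.3 CPM per kb in controls (SD, n = 4 each). Its libraries held 403, 241, 385 and 408 CPM in banded pigs, against 346, 280, 295 and 392 CPM in controls, so that banded 2 was the lowest of all 8 (log2 fold change 0.13 ± 0.19, edgeR adjusted p = 0.727). On the other side stood NDUFA10 (-0.26) and NDUFS4 (-0.23), and with positive log2 fold changes NDUFA13 (0.28) and NDUFA1 (0.25). NDUFAB1, which is also the acyl carrier protein of mitochondrial fatty acid synthesis, was at 0.08. NDUFA11 had a model of only 5.15 to 6.08 CPM in banded pigs and 4.46 to 6.37 CPM in controls.

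Complex III takes electrons from reduced ubiquinone and gives them to cytochrome c. Its 7 members had a median log2 fold change of -0.18, with 2 positive and 5 negative values, and the groups overlapped for each. The complex III subunits with a tested model outside these 7, UQCR11 and UQCRH, had positive log2 fold changes of 0.27 and 0.25. The median thus depends on which subunits were members. The negative values among the members were those of the large and redox-active proteins. CYCS, cytochrome c itself, had 583, 347, 546 and 530.1 CPM in banded pigs, against 754, 511, 665 and 497 CPM in controls. Banded 2 was below every control, and the other 3 banded libraries lay within the control range (log2 fold change -0.28 ± 0.20, edgeR adjusted p = 0.437). UQCRFS1, the Rieske iron-sulphur protein, had 626, 465.5, 616 and 653 CPM in banded pigs, against 681, 643, 606 and 810.0 CPM in controls. Here too banded 2 alone lay below the controls (log2 fold change -0.22 ± 0.16, edgeR adjusted p = 0.445). CYC1, which is cytochrome c1, and the core proteins UQCRC1 and UQCRC2 had log2 fold changes of -0.12, -0.21 and -0.18.

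The 2 positive values among the members of complex III belonged to its small subunits. UQCR10 had 434, 333, 460 and 484 CPM in banded pigs, against 341, 292, 346 and 433 CPM in controls. Banded 1, 3 and 4 were above every control, banded 1 and control 4 being nearly equal. The log2 fold change was 0.28 ± 0.17 (edgeR adjusted p = 0.346). UQCR10 also had the highest level per kilobase in the complex, 691 ± 107 CPM per kb in banded pigs and 570 ± 94.7 CPM per kb in controls (SD, n = 4 each). UQCRQ had 173, 113, 144 and 230 CPM in banded pigs, against 132, 120, 122 and 187 CPM in controls, which overlapped, with banded 4 highest and banded 2 lowest (log2 fold change 0.23 ± 0.22, edgeR adjusted p = 0.572).

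Complex IV, cytochrome c oxidase, reduces oxygen to water, and its nuclear members are the accessory subunits around a core that the mitochondrial genome encodes. Its 9 nuclear members had a median log2 fold change of 0.14, with 8 positive values and 1 negative. This median stayed positive with library size alone (0.03) and without any single library (0.06 to 0.27). None of the 9 was called.

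COX5A, a subunit on the matrix side, had 204.5, 177, 218 and 228 CPM in banded pigs, against 163, 157, 148 and 173 CPM in controls. All 4 banded libraries were above all 4 controls, the closest being banded 2 and control 4. The log2 fold change was 0.37 ± 0.13 (SE), with a 95% interval of 0.09 to 0.65 and an edgeR adjusted p of 0.108. Over the alternatives its adjusted p ranged from 0.0365 (DESeq2) to 0.269 (without control 3), and DESeq2 alone put it under 0.05. In the authors' deposited table its adjusted p was 0.0927, with a log2 fold change of -0.34 that is coded as control over banded. The COX5A model lies on chromosome 7 at positions 58622964 to 58644035 (Sscrofa11.1, plus strand).

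COX7A2, the more widely expressed isoform of subunit 7A, had 152, 117, 172.5 and 164 CPM in banded pigs, against 121.5, 93.9, 103 and 136 CPM in controls. Banded 1, 3 and 4 were above every control, and banded 2 lay among them. The log2 fold change was 0.41 ± 0.16, the highest of all members, with a 95% interval of 0.06 to 0.77 and an edgeR adjusted p of 0.151 (0.0736 to 0.344 over the alternatives). The authors' deposited table gave it an adjusted p of 0.222. Its heart and muscle partner COX7A1 had 653, 461, 584 and 764 CPM in banded pigs, against 520, 517, 539 and 760 CPM in controls. Control 4 stood well above the other controls, the banded libraries were spread over a wide range, and the groups overlapped (log2 fold change 0.08 ± 0.19, edgeR adjusted p = 0.853). With library size alone this value was -0.02.

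COX5B, the zinc-binding subunit, had the highest level per kilobase in complex IV, 324.5 ± 74.4 CPM per kb in banded pigs and 295 ± 42.3 CPM per kb in controls (SD, n = 4 each). Its libraries held 541, 325, 559 and 554 CPM in banded pigs, against 463, 370.4, 437.5 and 526 CPM in controls. Banded 1, 3 and 4 were above every control and banded 2 was below every control, for a log2 fold change of 0.14 ± 0.19 (edgeR adjusted p = 0.708). COX6A2, the heart and muscle isoform of subunit 6A, had 429.8, 320, 379 and 487 CPM in banded pigs, against 394, 385, 361 and 412 CPM in controls, with the controls inside the banded range (log2 fold change 0.06 ± 0.15, edgeR adjusted p = 0.861). COX4I1, the common isoform of subunit 4, had 174, 157, 223 and 194 CPM in banded pigs, against 206.5, 190, 185 and 168.5 CPM in controls. It was the 1 member of complex IV with a negative sign, at a log2 fold change of -0.004 ± 0.14 (edgeR adjusted p = 0.989), and its sign depended on the library left out. The small subunits COX7B, COX8A and COX7C had log2 fold changes of 0.21, 0.18 and 0.10.

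Complex V makes ATP in a catalytic head, F1, which is held by a peripheral stalk while a ring of c subunits turns beneath it. Its 8 members had a median log2 fold change of -0.08, with 2 positive and 6 negative values, and the median was 0.03 without control 4 and 0.02 without banded 2. All 3 head subunits were negative, with values between -0.15 and -0.14, and so were all 3 stalk subunits, with values between -0.10 and -0.04. The 2 genes of the c ring were at 0.07 and 0.10. For all 8 members the 95% interval of the fold change lay within 1.5-fold.

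ATP5F1C, the turning shaft of the head, had 690.1, 546.5, 680.3 and 716 CPM in banded pigs, against 741.5, 640, 647 and 885.5 CPM in controls. Banded 2 was below every control and control 4 above every other library (log2 fold change -0.15 ± 0.16, edgeR adjusted p = 0.623). ATP5F1A, the alpha subunit of the head, had 1257, 845, 1192 and 1229 CPM in banded pigs, against 1450, 1066, 1019 and 1459 CPM in controls. The controls formed a high and a low pair, with banded 1, 3 and 4 between them (log2 fold change -0.14 ± 0.19, edgeR adjusted p = 0.691). ATP5PO, the stalk subunit that caps the head, had the highest level per kilobase of the complex, 728 ± 120 CPM per kb in banded pigs and 748 ± 153 CPM per kb in controls (SD, n = 4 each). Its libraries held 615, 478, 693 and 698 CPM in banded pigs, against 646, 513, 576 and 816 CPM in controls, with banded 2 lowest and control 4 highest of all 8. The log2 fold change was -0.04 ± 0.18 (edgeR adjusted p = 0.924), and it was 0.10 without control 4 and 0.07 without banded 2.

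ATP5MC1 and ATP5MC3 encode the same mature c subunit with different import sequences. ATP5MC1 had 352, 214, 426 and 331 CPM in banded pigs, against 330, 275, 252 and 380 CPM in controls, and the controls lay inside the banded range (log2 fold change 0.10 ± 0.21, edgeR adjusted p = 0.826). ATP5MC3 had 386, 281, 483 and 412.5 CPM in banded pigs, against 352, 350, 355 and 432 CPM in controls (log2 fold change 0.07 ± 0.17, edgeR adjusted p = 0.852). With library size alone both values were negative (-0.0019 and -0.04). The ATP5MC3 model shares exons with that of ATF2, a transcription factor.

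The libraries varied together across members. Banded 2 was the lowest of the 8 libraries for 40 of 51 members, 78.4%, beside 11.4% of all tested genes, and it lay below the control mean for 47. Control 4 was the highest for 21 members, 41.2%, beside 11.5% of all tested genes. The mean deviation of all members from their control means, on the log2 scale, was 0.06, -0.35, 0.07 and 0.22 in banded 1 to 4 and 0.01, -0.11, -0.11 and 0.21 in controls 1 to 4. Banded 2 and banded 4 thus marked the lowest and the highest end of the banded group, and control 4 the highest of the controls. Over the 8 libraries, 46 of 51 members had a Pearson correlation of 0.5 or more with the mean of the other members, and 33 had 0.8 or more. The 5 below 0.5 were NDUFS8, COX4I1, CYCS, NDUFS1 and COX5A. These values are a description over 8 libraries of like depth, whose tissue make-up differed: 3 adipocyte markers were highest in banded 1 (ADIPOQ at 199 CPM, against 2.60 to 11.7 CPM in the other banded pigs and 8.12 to 23.5 CPM in controls), and the red blood cell gene HBB was highest in banded 4 (1730 CPM, against 125 to 168 CPM in the other banded pigs and 72.02 to 313 CPM in controls). What sets the shared level of a library was not tested.

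**Figure D2:**
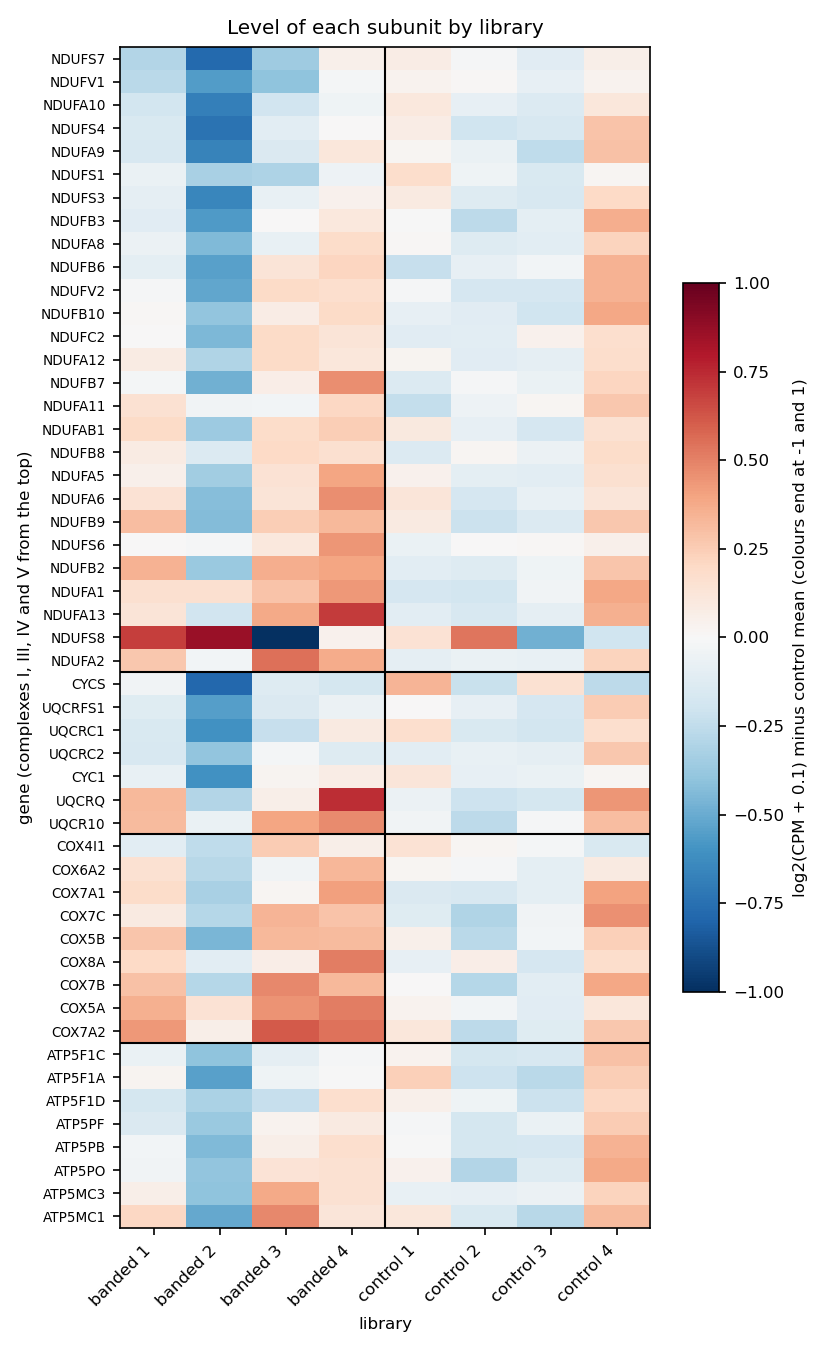
Level of each subunit in each of the 8 libraries (columns, banded left of control), as log2 of CPM plus 0.1 minus the control mean, with complexes I, III, IV and V from the top. The column of banded 2 is blue for most genes (47 of 51 below the control mean), while COX5A and COX7A2 at the foot of complex IV are at or above it in all 4 banded libraries.

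Because a library's general level cancels within it, the complexes were also compared inside each library, as the mean log2 deviation of 1 complex minus that of another. This comparison was chosen after the values had been seen, and it is given without a test. Complex IV minus complex III was 0.20, 0.27, 0.29 and 0.22 in banded pigs, against -0.06, 0.02, -0.01 and 0.05 in controls. Complex IV minus complex V was 0.23, 0.23, 0.19 and 0.26 in banded pigs, against -0.05, 0.03, 0.08 and -0.06 in controls. Complex I minus complex IV was -0.17, -0.15, -0.26 and -0.15 in banded pigs, against -0.02, 0.06, -0.03 and -0.02 in controls. In each of these 3 differences the groups did not overlap, banded 2 included, and in all of them complex IV stood higher relative to the other complex in banded pigs. In the other 3 of 6 pairs the groups overlapped. Subunits that are not members do not enter these means, among them UQCR11 and UQCRH of complex III, which had positive log2 fold changes. The differences with such subunits included were not computed.

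The same 3 pairs of 6 did not overlap without NDUFS8 or without CYCS. Leaving out NDUFS8 can change only the pairs with complex I, and leaving out CYCS only those with complex III. The remaining pairs were the same by construction. Without the 7 members that share exons with another same-strand model, the negative complex IV member COX4I1 among them, the 3 pairs did not overlap. Without COX5A and COX7A2, the highest values of complex IV, they did not overlap either, but the differences were smaller. Complex IV minus complex III was then 0.14 to 0.21 in banded pigs and -0.08 to 0.06 in controls, and complex IV minus complex V was 0.12 to 0.21 in banded pigs and -0.07 to 0.09 in controls. Complex I minus complex IV was -0.19 to -0.06 in banded pigs and -0.04 to 0.06 in controls. Within complex I, core minus accessory subunits overlapped between the groups with NDUFS8 included. Without it the differences were -0.20, -0.21, -0.32 and -0.23 in banded pigs, against 0.12, 0.04, -0.05 and -0.11 in controls. Gene length also differed between the complexes: the median exon length was 1582 bases in complex I, 2171 in complex III, 1383 in complex IV and 3091.5 in complex V. Complex IV had the shortest median and the highest median log2 fold change. Complex V had the longest, but its median log2 fold change (-0.08) was above that of complex III (-0.18). Across the 51 members log2 fold change and exon length had a Spearman correlation of -0.30, and across all 13697 tested genes it was -0.18, where genes are not independent replicates. The part of length in the difference between complexes was not tested.

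**Figure D3:**
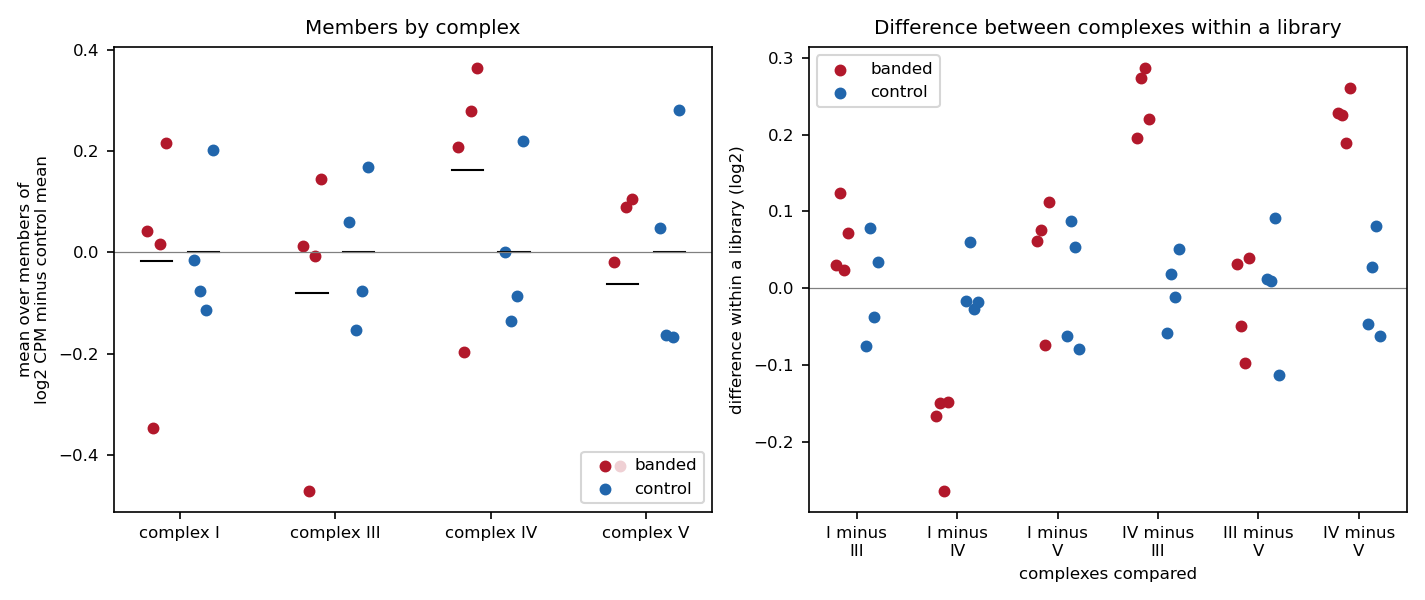
Left, mean over the members of a complex of log2 CPM minus the control mean, for each library (points; black bars are group means). Right, the difference between 2 complexes within each library, where banded and control points are apart for I minus IV (banded -0.26 to -0.15), IV minus III (banded 0.20 to 0.29) and IV minus V (banded 0.19 to 0.26).

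Isoform use was compared as the share of 1 isoform in the length-normalised sum of a pair, with exact two-sided permutation tests over the 70 ways to split the libraries, adjusted over 4 shares. The smallest p this design can give is 0.0286. COX7A1, the heart and muscle isoform, made up 49.8%, 47.6%, 43.8% and 51.7% of the 7A pair in banded pigs, against 49.7%, 55.9%, 54.6% and 56.3% in controls. All 4 banded libraries were below the control mean, but control 1 lay among them. The means were 48.2% ± 3.4 in banded pigs and 54.1% ± 3.1 in controls (SD, n = 4 each), a difference of -5.90 percentage points (exact permutation p = 0.0857, adjusted p = 0.343). The level of this share depends on the exon lengths of the models, 2320 bases for COX7A1 and 535 for COX7A2. Before division by length, COX7A1 had a mean of 615.3 CPM and COX7A2 of 151.5 CPM in banded pigs. In controls these means were 583.7 and 113.6 CPM.

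The other shares lay close together. COX6A2 made up 94.8% ± 0.34 of the 6A pair in banded pigs and 95.3% ± 1.0 in controls (exact permutation, adjusted p = 0.8). COX4I2, the isoform of subunit 4 known from lung, made up 11.2% ± 1.9 of its pair in banded pigs and 10.6% ± 2.4 in controls (exact permutation, adjusted p = 0.8286). ATP5MC1 made up 85.4% ± 1.0 of the pair with ATP5MC3 in banded pigs and 85.1% ± 1.6 in controls (exact permutation, adjusted p = 0.8286). The models of COX6A1, COX4I1 and ATP5MC3 share exons with those of GATC, IRF8 and ATF2, so that these 3 shares are also uncertain in level.

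**Figure D4:**
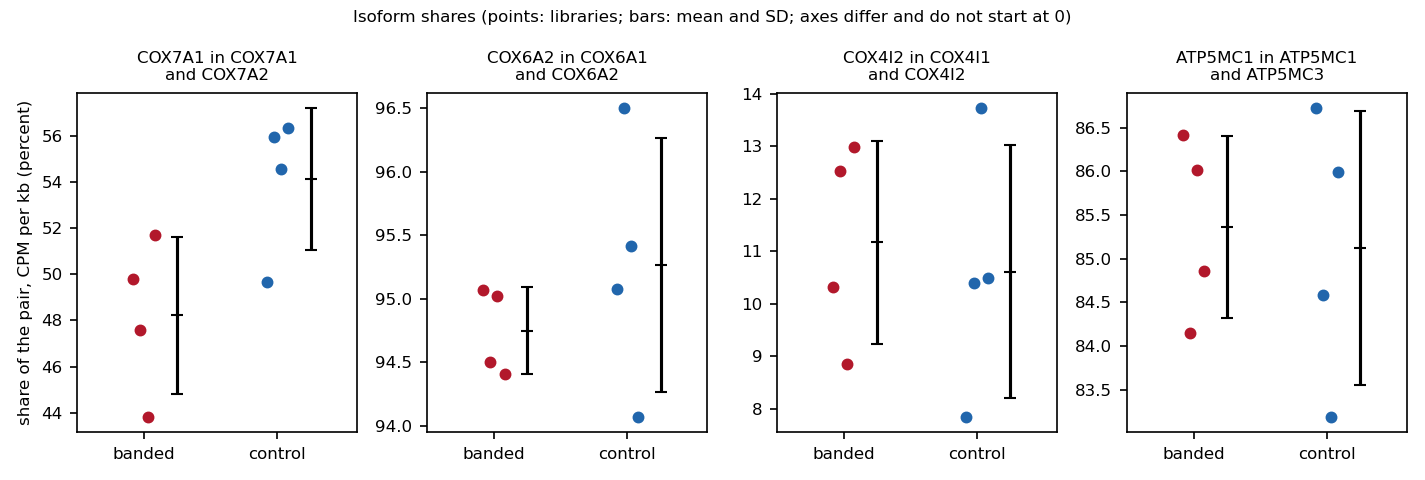
Share of 1 isoform in the CPM per kb of its pair, in percent, for each library (points), with mean and SD (bars); banded left of control, and each panel has its own axis that does not start at 0. In the 7A panel the 4 banded points (43.8% to 51.7%) lie below 3 of the 4 control points.

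The subunits made from the mitochondrial genome are the partners of these members. Their summed level was 321300 to 424500 CPM in banded pigs and 316200 to 492100 CPM in controls, which was 25.5 ± 3.9 times the sum of the nuclear members in banded pigs and 24.3 ± 2.3 times in controls (SD, n = 4 each). By complex this ratio was 26.4 ± 4.5 in banded pigs and 26.2 ± 2.8 in controls for complex I, and 11.25 ± 1.6 in banded pigs and 10.6 ± 0.77 in controls for complex III. For complex IV it was 48.2 ± 6.8 in banded pigs and 47.1 ± 4.4 in controls, and for complex V 17.5 ± 3.4 in banded pigs and 17.35 ± 1.1 in controls. Each of these differences was smaller than the SD of either group. Without ND1, which splits the controls as given below, the complex I ratio was 21.5 ± 3.8 in banded pigs and 23.9 ± 0.50 in controls (SD, n = 4 each), so that its direction turned. That difference exceeded the SD of the controls but not that of the banded pigs, and the groups overlapped. Without ATP8 the complex V ratio was 17.0 ± 3.3 in banded pigs and 17.2 ± 0.84 in controls.

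Of the 13 mitochondrial-genome genes, 1 was called by edgeR, a share near the 6.97% of all tested genes. DESeq2 called 2, both of complex I, and limma-voom called 2 of complex I and 1 of complex V. In edgeR 2, both of complex I, had an unadjusted p under 0.05. The shares of all genes by these measures were 12.5%, 9.79% and 23.8%. The gene called by edgeR was ND6, a membrane subunit of complex I and the 1 protein gene read from the other strand of that genome. It had 105, 110, 88.1 and 144 CPM in banded pigs, against 176.5, 199, 205 and 162 CPM in controls, with no overlap. Its log2 fold change was -0.73 ± 0.16 (edgeR adjusted p = 0.0224). The call was lost without control 1 (adjusted p = 0.0592), control 2 (0.0754), control 3 (0.0771) or banded 1 (0.0537), and over all alternatives the adjusted p ranged from 0.000805 to 0.0771. ND4, another membrane subunit of complex I, also did not overlap, where 15.9% of all tested genes did not. It had 38850, 31690, 28020 and 35460 CPM in banded pigs, against 48920, 44310, 41590 and 43230 CPM in controls (log2 fold change -0.41 ± 0.16, edgeR adjusted p = 0.147).

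Several mitochondrial gene models split the controls. ATP8, a small subunit of complex V, had 2359, 2424, 1880 and 2698 CPM in banded pigs, against 1.35, 1.16, 1.12 and 3137 CPM in controls 1 to 4. ND1, the complex I subunit at the ubiquinone site, had 25740, 17100, 18730 and 22110 CPM in banded pigs, against 4140, 4138, 4156 and 32260 CPM in controls. An unnamed model on chromosome 9 had the opposite pattern, with 25.4, 22.4, 19.3 and 32.2 CPM in banded pigs, against 4209, 4390, 4817 and 33.8 CPM in controls. A mitochondrial model without a gene name had 10.3, 6.31, 6.62 and 7.13 CPM in banded pigs, against 0, 0, 0 and 18.4 CPM in controls, and another, under 1 CPM throughout, was also at 0 in controls 1 to 3 and above 0 in the other libraries. Control 4 thus resembled the banded pigs in these 5 models, and controls 1 to 3 did not. Over all tested genes the chi-square of counts over its degrees of freedom was 129 to 323 between control 4 and a banded library. It was 132 to 154 between control 4 and another control, and 29.2 to 34.2 among controls 1 to 3. By Spearman correlation over the same genes, control 4 stood nearer to the controls. Its values were 0.9751 to 0.9798 with controls 1 to 3 and 0.9465 to 0.9631 with banded libraries, beside 0.9834 to 0.9859 among controls 1 to 3. The labels name no maternal line, and the origin of this split was not tested. Without ND1 the complex I sum was 91200 ± 13210 CPM in banded pigs and 105400 ± 12850 CPM in controls. Without ATP8 the complex V sum was 73720 ± 12620 CPM in banded pigs and 80220 ± 15350 CPM in controls (SD, n = 4 each). Both sums still overlapped between the groups.

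**Figure D5:**
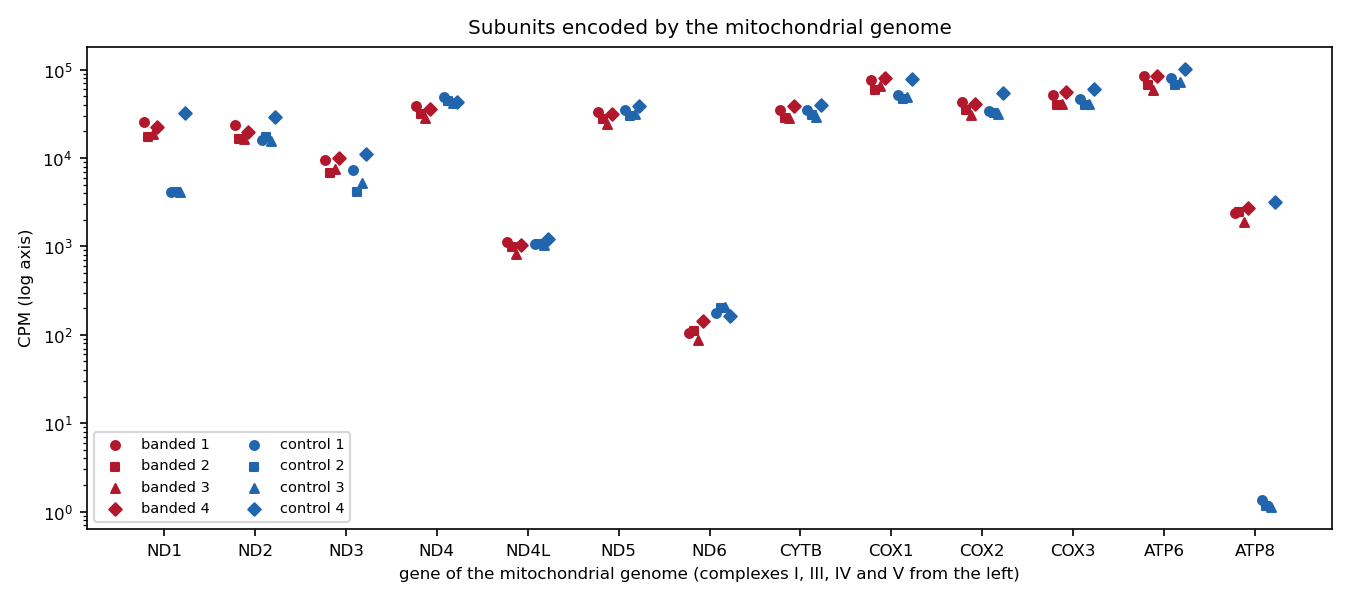
Level of the 13 protein genes of the mitochondrial genome in each library, in CPM on a log axis, banded left of control. Controls 1 to 3 stand at about 1 CPM for ATP8 and near 4140 CPM for ND1, apart from control 4 and all banded libraries, and the 4 banded points of ND6 (88.1 to 144 CPM) lie below the 4 control points.

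The wider pathway gave few calls. None of the other nuclear subunits was called: 0 of 7 tested in complex I, 0 of 1 in complex III, 0 of 5 in complex IV and 0 of 6 in complex V. Complex II, which feeds electrons from succinate and is encoded wholly in the nucleus, had 0 of 4 subunits called, and all 4 had negative log2 fold changes with a median of -0.20. Over these 23 genes 1 had an unadjusted p under 0.05 in edgeR, and DESeq2 and limma-voom each called 0. Factors that assemble the complexes had 0 calls among 17 tested for complex I, 7 for complex III, 19 for complex IV and 5 for complex V. Of these 48 factors, 9 had an unadjusted p under 0.05 in edgeR, DESeq2 called 4 (NDUFAF4, NDUFAF5, NDUFAF7 and ATPAF1) and limma-voom 2, beside 23.8%, 12.5% and 9.79% of all genes by the same measures. In edgeR NDUFAF4 had a log2 fold change of 0.81 ± 0.26 (adjusted p = 0.0916), and the other 3 had negative values. Genes of mitochondrial content and import had 0 of 18 called by any of the 3 tools, 1 with an unadjusted p under 0.05 in edgeR, and a median log2 fold change of -0.04.

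Among 12 genes of ubiquinone synthesis, the lipid that carries electrons between complexes I and III, 0 were higher and 1 was lower in banded pigs by edgeR, where 3.5% of all tested genes were lower. Of these 12, DESeq2 called 1 and limma-voom 2, and 4 had an unadjusted p under 0.05 in edgeR. The shares of all genes by these measures were 12.5%, 9.79% and 23.8%. There were 3 positive and 9 negative log2 fold changes, with a median of -0.20. The gene called by edgeR was COQ8A, an atypical kinase of the synthesis complex. It had 65.7, 75.9, 44.5 and 133 CPM in banded pigs, against 187, 206, 182 and 206 CPM in controls, with no overlap. Its log2 fold change was -1.29 ± 0.28 (edgeR adjusted p = 0.0223). The call was lost without control 1 (adjusted p = 0.0597), control 2 (0.0678), control 3 (0.0583), control 4 (0.0509), banded 1 (0.0501) or banded 2 (0.0631), and over all alternatives the adjusted p ranged from 8.35e-05 to 0.0678. Among 13 activators of respiratory genes edgeR called 0, with 4 at an unadjusted p under 0.05, while DESeq2 called 3 (PPARGC1A, TFB1M and TFB2M) and limma-voom 1. The same all-gene shares, 23.8%, 12.5% and 9.79%, stand beside these counts. The lowest value there was that of PPARGC1A, a coactivator of mitochondrial genes, with 49.9, 40.1, 29.1 and 51.9 CPM in banded pigs, against 79.0, 87.1, 146 and 50.99 CPM in controls (log2 fold change -1.09 ± 0.30, edgeR adjusted p = 0.0634). The highest was TFB2M, a mitochondrial transcription factor, at 0.95 ± 0.27 (edgeR adjusted p = 0.0591).

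Of these pathway genes, the 5 whose level over the 8 libraries was most like the mean of the members were ATP5MG (Pearson correlation 0.99), ECSIT (0.95), ATP5IF1 (0.94), ATP5ME (0.93) and ATP5F1E (0.93). All but ECSIT, a complex I assembly factor, are small subunits or the inhibitor of ATP synthase. The log2 fold changes of the 5 genes lay between -0.11 and 0.05, and banded 2 was the lowest library for each. The models of ATP5MG, ECSIT and ATP5F1E share exons with other models on the same strand, so their levels are uncertain.

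Markers of other cells, counted beside the members, gave 1 fibroblast gene higher (FBLN1) and 1 lower (PDGFRA) of 8 by edgeR, with 3 at an unadjusted p under 0.05 (LUM was the third), 3 called by DESeq2 and 2 by limma-voom. There were 0 calls by edgeR among 7 endothelial, 6 smooth muscle and pericyte, and 5 lymphocyte markers, where DESeq2 called 1, 2 and 0 in that order and 1, 2 and 0 had an unadjusted p under 0.05 in edgeR. All 6 macrophage markers were positive and 0 were called by edgeR, with 4 at an unadjusted p under 0.05. DESeq2 and limma-voom each called 2. The summed level of these markers was 320 to 721 CPM in banded pigs and 230 to 380 CPM in controls. Beside the counts of these lists, the shares of all genes were 23.8% at an unadjusted p under 0.05, 12.5% by DESeq2 and 9.79% by limma-voom. For the 3 tested adipocyte markers the summed level was 3.71 to 292 CPM in banded pigs and 12.2 to 32.2 CPM in controls, and for the 2 red blood cell markers it was 129 to 1781 CPM in banded pigs and 74.5 to 321 CPM in controls, with 0 calls in either list. The part of other cells in the members' values was not tested.

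Of the 51 members, 0 in the authors' deposited table had an adjusted p under 0.05, beside 10.6% of 14099 gene models. That table gives control over banded, and 48 of 51 members had the opposite sign to the values above, as the coding implies.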

How the data were processed

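The members and gene lists were chosen with earlier results of these data known. Per the file headers, featureCounts 1.6.2 made the deposited counts from read pairs (mapping quality at least 10, strand setting 2, Ensembl release 106 of Sscrofa11.1), and they are raw. Trimmomatic, HISAT2, Subread and DESeq2 also appear in the submitters' processing notes, and their settings are not given in the sources used here. In the authors' deposited comparison, log2 fold changes run control over banded, beside a mean signal, a Wald score, p-values and adjusted p-values.

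TMM scaling and filterByExpr (count of at least 10, total of at least 15) preceded the test, which was edgeR 4.0.16's quasi-likelihood F test of banded over control (robust, two-sided, R 4.3.3), with Benjamini-Hochberg adjustment over 13697 genes and a threshold of 0.05. The fit was tested on simulated data, with changes set in genes drawn from all those tested. It called 4 of 67 genes changed 1.5-fold, 34 of 67 changed 2-fold and 53 of 66 changed 4-fold. Of 13497 unchanged genes it called 7. Fewer genes were changed in the simulation than the 954 called in the data, so these rates may differ from those of the real fit. They may also differ for the members, whose standard errors had a median of 0.17, beside 0.21 over all tested genes. A standard error is the log2 fold change over the square root of F. CPM are TMM-normalised, and levels per kb divide by the exon length in the count table. Single shares were tested by exact permutation. ATP5MC2 had no model, so 4 isoform shares were tested in place of 6 planned. Chosen by rule to be named were, per complex, the 2 highest and the 2 lowest log2 fold changes, the highest level per kb and the isoform partners. Called genes of other lists and the 5 pathway genes most like the members were also named by rule. Of all these, the members, ND6 and COQ8A are given with values per library. ND4, PPARGC1A, TFB2M, NDUFAF4, the other genes called by DESeq2, ATP8, ND1 and the chromosome 9 model were added after their values were seen. No library was a copy of another. Each library is a separate animal, and no batch or pairing is labelled. Alternatives were DESeq2 1.42.0, limma-voom (limma 3.58.1) with quality weights, median-of-ratios and library size scaling, no filter, 50 counts in 4 libraries, no robust estimation, no mitochondrial-genome genes, raw counts for the shares, and each library left out. Leaving out members that share exons with another model, COX5A and COX7A2, or ND1 and ATP8 was chosen after seeing the data. No sequence is printed, because the reference tables used here hold gene names and positions only.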

Additional observations from a re-analysis of the deposited data

Results flagged for a closer look

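In 126 groups of 4 libraries, 10 had a library far from the other 3 (a gap to the nearest library above Dixon's 95% critical share of the range). Chance gives about 1 in 20 for a single group. The members varied together across libraries, so the groups are not independent and the count cannot be judged by that rate. In each of the 10, the library apart was either banded 2, below the other banded libraries, or control 4, above the other controls.

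Banded 2 was low for 5 members. NDUFAB1 was at 104.9 CPM there, against 153.1 to 159.6 CPM in the other banded libraries, and NDUFB2 at 46.67 CPM, against 76.93 to 79.11 CPM. NDUFB9 was at 241.4 CPM, against 385.2 to 407.8 CPM in the other banded libraries. COX5B was at 325.1 CPM in banded 2, against 540.7 to 559.4 CPM, and ATP5F1A at 844.6 CPM, against 1192 to 1257 CPM.

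Control 4 was high for 5 members. NDUFA2 was at 59.51 CPM there, against 47.85 to 48.64 CPM in the other controls, and NDUFA13 at 85.37 CPM, against 59.55 to 62.4 CPM. UQCRC2 was at 585.7 CPM in control 4, against 451.9 to 461.3 CPM in the other controls. COX7A1 was at 759.9 CPM, against 516.6 to 538.7 CPM, and ATP5MC3 at 431.9 CPM, against 349.8 to 355.2 CPM. What sets these libraries apart was not tested.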

How the results depend on the processing

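No paired analysis was possible because the labels give no replicate numbers that banded and control pigs share. The count of all genes called was 954, and it was 1710 with DESeq2 and 399 to 962 with 1 library left out (399, 415 and 409 without control 1, 2 or 3). DESeq2 called 1 member higher, COX5A. Under the other alternatives run 0 members were called in either direction. Scaling by library size alone put the median of all genes at -0.09 in place of 0.02. It turned the sign of COX6A2 to -0.052, of COX7A1 to -0.02, of ATP5MC1 to -0.0019 and of ATP5MC3 to -0.0352, all log2 fold changes. With 1 library left out the sign also turned for some members, with log2 fold changes of -0.008 to 0.6131 for NDUFS8, -0.0992 to 0.0723 for COX4I1, -0.043 to 0.1552 for COX6A2 and -0.0426 to 0.2281 for COX7A1. The range was -0.1312 to 0.1017 for ATP5PO, -0.0467 to 0.2591 for ATP5MC1 and -0.0488 to 0.1993 for ATP5MC3. The difference in the share of ATP5MC1 was -0.4036 to 0.7726 percentage points and that of COX4I2 -0.3643 to 1.596. The cause of these shifts was not tested. The medians of complexes I, III, IV and V moved by less than the spread between libraries under each alternative. With 4 animals a group, the 95% interval of the fold change lay within 1.5-fold for 34 of 51 members.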
